A study of Mus musculus with 9 samples.

Results

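The potassium channel genes of the mouse were followed in bulk RNA of the substantia nigra. They were taken as the protein-coding genes whose GENCODE M21 symbol consists of Kcn, further letters and a final number, a rule that uses names and no measured value. It found 92 genes among the 55450 gene identifiers counted, 77 for pore-forming subunits and 15 for auxiliary subunits, in 15 subfamilies. Nigral tissue was taken 5 weeks after a Cre-inducible (FLEX) lentiviral vector had been injected bilaterally into male mice, 8 weeks old in the study's results and 9 weeks old in its methods. The CTR group was CX3CR1-CreERT2 mice given a control vector, named GFP in the labels and destabilized GFP in the paper. The CX3 group was mice of the same line, named CX3-Cre in the labels, given a Synuclein-expressing vector, and the DAT group was DAT-Cre mice given the same vector. CX3CR1-CreERT2 is a tamoxifen-dependent recombinase driven by the Cx3cr1 locus, which is active in microglia and other myeloid cells, and these mice received tamoxifen for 4 days. DAT-Cre is driven by the locus of the dopamine transporter gene Slc6a3 and acts in dopamine neurons without tamoxifen. CTR and DAT therefore differ in driver line, tamoxifen and vector together, which cannot be told apart, and CX3 and CTR share line and tamoxifen. Each group had 3 libraries, and the number of animals behind a library is not given in the sources used here, so the p-values measure the spread between these libraries, which may be technical.

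Potassium channels let potassium leave cells, which repolarizes the membrane, and they set the resting potential, spike shape and firing rate of neurons. Voltage-gated subunits (Kcna, Kcnb, Kcnc, Kcnd, Kcnq, Kcnh) open on depolarization, calcium- and sodium-activated subunits (Kcnma, Kcnn, Kcnt) after ion entry, inward rectifiers (Kcnj) conduct near rest, and two-pore-domain channels (Kcnk) carry leak current. In the nigra, A-type, small-conductance calcium-activated, G protein-gated and ATP-sensitive channels shape the pacemaking of dopamine neurons, while Kv3 channels allow the fast spikes of inhibitory neurons. Glia buffer extracellular potassium with Kcnj10, and microglia, T cells and epithelia use channels of their own.

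Reads counted on genes ranged from 21592817 (DAT 2) to 39475428 (DAT 1) per library, so 3 counts equal 0.0779 to 0.151 CPM (counts scaled to the TMM-normalized library size), a floor that covers counting error only. Libraries are numbered 1 to 3 for the letters A to C of their labels, and values of a group are given in that order. The coefficient of biological variation was 1.78% among the CTR, 4.82% among the CX3 and 8.55% among the DAT libraries. DAT 2 and CX3 1 stood apart from the other libraries of their groups, with squared differences of 12.1 to 16.5 times the sampling noise for DAT 2 and 4.76 to 6.59 times for CX3 1, beside 1.45 to 1.80 times between CTR libraries. Dopamine neuron markers were present, with summed levels of 424 to 427 CPM in CTR, 603 to 611 CPM in CX3 and 364 to 367 CPM in DAT. Other cell types moved between the groups as well. The 5 microglia markers were lower in CX3 (426 to 435 CPM) and in DAT (441 to 451 CPM) than in CTR (659.5 to 666 CPM). GABA neuron markers reached 1149.7 to 1245 CPM in DAT against 596 to 604 CPM in CTR. The pituitary hormone gene Gh was at 33.6 to 35.8 CPM in CTR and at 0.0781 to 0.312 and 0.0439 to 0.165 CPM elsewhere. The full list of 7 pituitary markers summed to 61.5 to 64.1 CPM in CTR, 6.12 to 6.47 CPM in CX3 and 18.5 to 23.6 CPM in DAT. Among the 4 tested, 3 were lower in CX3 and 2 in DAT, and none was higher. Of 3 tested cerebellar granule neuron markers, 2 were higher in DAT and none lower. Their full list summed to 2.99 to 3.17 CPM in CTR, 4.06 to 4.13 CPM in CX3 and 14.7 to 19.1 CPM in DAT. Most of this rise lay in 1 gene, Fat2, at 0.460 to 0.714 CPM in CTR and 11.5 to 15.9 CPM in DAT. Gabra6, on the same list, was too low to test, with 0.0439 to 0.151 CPM in DAT. All 3 tested cortical excitatory neuron markers were higher in DAT, with a median log2 fold change of 0.99, and no striatal neuron marker was called there. The part of other brain regions in the channel values was not tested. In bulk tissue, fewer cells of a type and less RNA per cell cannot be told apart.

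Promoter sequences are shown for the epithelial channel genes Kcne2 and Kcnj13, the members with the largest rises in CX3, and for the Kv3 gene Kcnc1, the most abundant per kilobase of the 10 members with the largest rises in DAT. Each is the 250 bases before the RefSeq transcription start in GRCm38.p6 and runs 5′ to 3′ on the gene's strand. Capitals mark the GC box GGGCGG, searched on both strands. In the window of Kcnj13 they mark the TATA motif, TATAAA, searched likewise.
Kcne2, plus strand, chr16:92292139-92292388: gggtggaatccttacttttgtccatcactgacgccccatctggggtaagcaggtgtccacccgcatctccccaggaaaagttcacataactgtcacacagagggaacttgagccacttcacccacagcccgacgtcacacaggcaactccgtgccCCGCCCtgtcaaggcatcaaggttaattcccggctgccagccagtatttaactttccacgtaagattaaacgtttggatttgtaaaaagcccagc
Kcnj13, minus strand, chr1:87394730-87394979: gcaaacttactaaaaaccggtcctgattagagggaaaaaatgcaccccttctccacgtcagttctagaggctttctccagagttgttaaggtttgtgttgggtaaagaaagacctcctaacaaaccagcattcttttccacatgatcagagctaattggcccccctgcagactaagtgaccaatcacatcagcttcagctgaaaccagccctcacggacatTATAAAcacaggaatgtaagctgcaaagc
Kcnc1, plus strand, chr7:46396218-46396467: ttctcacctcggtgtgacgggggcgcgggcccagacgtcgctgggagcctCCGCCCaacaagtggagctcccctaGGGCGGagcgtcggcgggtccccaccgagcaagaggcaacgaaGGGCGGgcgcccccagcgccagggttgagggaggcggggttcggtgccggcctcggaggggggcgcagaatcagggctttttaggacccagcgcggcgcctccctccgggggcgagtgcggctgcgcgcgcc
The window of Kcne2 held 1 GC box and that of Kcnc1 held 3, while that of Kcnj13 held a TATA motif that begins 29 bases before the start. GGGCGG was found in 46.3% of the 67 member promoters listed in RefSeq and in 32.7% of all 32851 promoters, and TATAAA in 2.99% and 12.4%. Median GC content was 58.8% over the member promoters and 52.4% over all promoters. TAATCC, the core letters bound by OTX-type factors, and the cAMP response element TGACGTCA were in 1.49% and 0% of the member promoters and in 6.25% and 1.55% of all. These sets are unlike. Each listed member gave 1 promoter, the one nearest its GENCODE start. The 32851 promoters belong to 27025 genes and were not limited to protein-coding genes.

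In control nigra, 60 of the 92 members reached at least 1 RPKM (CPM per kilobase of exon), the scale used to set genes side by side. The glial inward rectifier Kcnj10 was highest, at 66.8 ± 1.70 RPKM (SD, n = 3), followed by Kcnab2, a cytoplasmic beta subunit, at 42.1 ± 0.246 RPKM, and the leak channel Kcnk1 at 27.0 ± 0.270 RPKM. The axonal Kv1 gene Kcna2 (21.98 ± 0.552 RPKM), the channel-interacting protein gene Kcnip3 (20.6 ± 0.449 RPKM), the Kv3 genes Kcnc2 (20.6 ± 0.368 RPKM) and Kcnc1 (18.2 ± 0.426 RPKM), Kcnip4 (16.4 ± 0.308 RPKM), the A-type gene Kcnd2 (16.2 ± 0.150 RPKM) and the G protein-gated rectifier Kcnj9 (15.9 ± 0.376 RPKM) completed the 10 highest. Kcnip3 and Kcnc2 differed by less than their spread, as did the neighbours Kcnip4 and Kcnd2 and the neighbours Kcnd2 and Kcnj9. At the other end, 11 members were too low to test, with at most 18 counts in any library: Kcna7, Kcna10, Kcne1, Kcne3, Kcnj1, Kcnj15, Kcnk15, Kcnk16, Kcnk18, Kcnmb3 and Kcnv2. The other 81 passed the filter.

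The first question was how the family as a whole differed between the groups. In DAT compared with CTR, 63 of 81 tested members were higher and 3 lower at an edgeR adjusted p below 0.05, beside 32% of all 20892 tested genes higher and 27.9% lower. The members called higher became 32 and those called lower 19 when libraries were scaled on the 5 neuron markers (Rbfox3, Snap25, Syt1, Map2, Stmn2), beside 8.62% of all genes higher and 66.4% lower on that scale. By library size alone they became 53 and 5, beside 23.4% and 38.5% of all genes. At least 1.5-fold, 37 members were higher and 2 lower in DAT, beside 12.5% and 17.3% of all genes. The median log2 fold change of the members was 0.49, against -0.00 over all genes. In CX3 compared with CTR, 21 members were higher and 8 lower, beside 14% and 16.5% of all genes, with a median log2 fold change of 0.05. By library size alone they were 24 and 8, beside 18.9% and 13.2% of all genes, and when scaled on the 5 neuron markers 20 and 11, beside 10.2% and 20.1%. Past 1.5-fold, 6 were higher and 1 lower, beside 3.19% and 4.76% of all genes. Compared directly, CX3 had 9 members higher and 58 lower than DAT, beside 27.6% and 31.3% of all genes, and past 1.5-fold 4 higher and 33 lower, beside 16% and 13.1%. This split became 24 higher and 27 lower when scaled on the 5 neuron markers, beside 63.3% and 10.6% of all genes. By library size alone it was 16 and 49, beside 42.7% and 21.3%. Without CX3 1 and DAT 2 the members called higher numbered 32 in CX3 and 64 in DAT against CTR, and those called lower 10 and 3. Without CTR 3, 5 were lower in CX3 against CTR. The comparisons with CTR share its 3 libraries, so their values are given side by side. Counts of subfamilies and lists below are to be read beside these shares of all genes on the same scale.

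**Figure D1:**
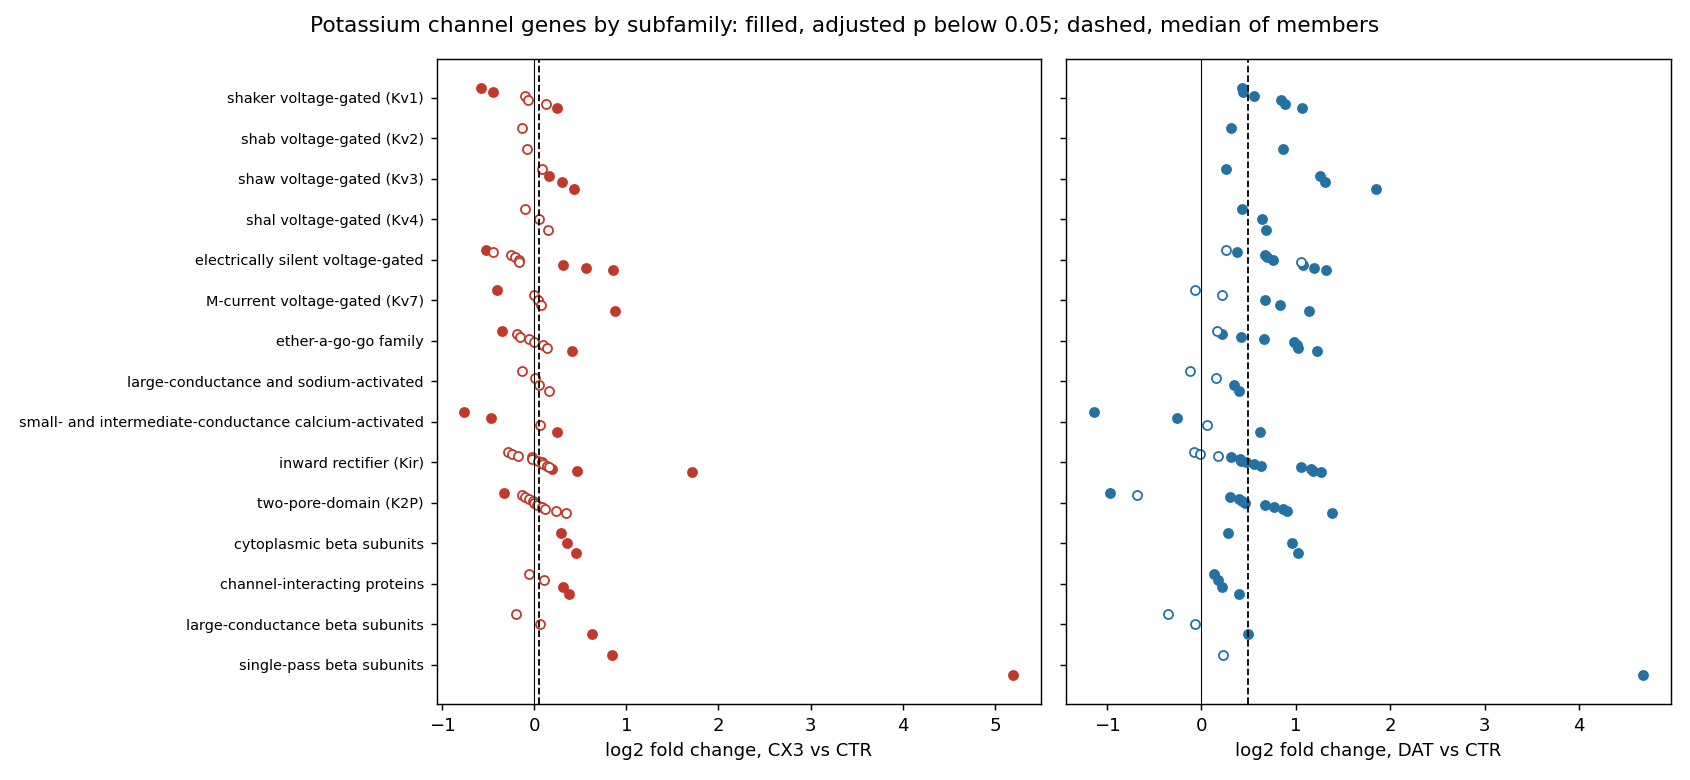
Log2 fold change of the 81 tested potassium channel genes by subfamily, CX3 vs CTR on the left and DAT vs CTR on the right; each point is a gene, filled where the edgeR adjusted p is below 0.05, and the dashed line is the median of the members (0.05 and 0.49). Most DAT points lie right of 0, including 32 of 37 voltage-gated pore genes called higher (20 higher and 3 lower when scaled on the 5 neuron markers). CX3 points lie on both sides of 0, with Kcne2 and Kcnj13 farthest right and Kcnn2 farthest left. Of 12 tested auxiliary genes, 8 were higher and none lower in CX3, with a median of 0.34, beside 14% and 16.5% of all genes.

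Voltage-gated pore genes were the largest group of those higher in DAT: 32 of 37 were higher than in CTR and none lower, with a median log2 fold change of 0.69, and 20 higher and 3 lower when scaled on the 5 neuron markers. In CX3, 9 were higher and 5 lower than in CTR, with a median of -0.00. The Kv3 genes, whose channels close fast enough for high-frequency firing, moved most, with 4 of 4 higher in DAT and a median of 1.29 (3 higher and 1 lower when scaled on the 5 neuron markers). Kcnc1 (ENSMUSG00000058975.7, chromosome 7, 46396497 to 46438704) had 170.5, 170.0 and 177 CPM in CTR, 182, 194 and 201 in CX3 and 440.2, 379 and 421 in DAT. DAT stood far above both other groups, with a log2 fold change ± SE of 1.26 ± 0.06 (adjusted p = 3.02e-10) against CTR, the form in which differences are given from here on. The small difference in CX3, 0.16 ± 0.06 (adjusted p = 0.0498), lost its call without any one of CTR 1, CTR 2, CTR 3, CX3 2, CX3 3 and DAT 3 (adjusted p 0.0699 to 0.18) and with DESeq2 (0.0907). Kcnc4 followed Kcnc1 in DAT, with 55.8, 53.3 and 50.9 CPM in CTR, 57.0, 56.4 and 56.4 in CX3 and 139, 129.6 and 128 in DAT. Its log2 fold change was 1.31 ± 0.05 (adjusted p = 5.29e-11) against CTR. Kcnc2 was the exception, with 148, 149 and 144 CPM in CTR, 178, 188 and 179 in CX3 and 175, 178 and 174 in DAT. It was higher by 0.31 in CX3 and 0.26 in DAT against CTR, and -0.25 in DAT when scaled on the 5 neuron markers.

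All 6 tested Kv1 genes, which encode low-threshold channels of axons and terminals, were higher in DAT than in CTR, with a median of 0.70 (3 higher and 0 lower when scaled on the 5 neuron markers), while in CX3 1 was higher and 2 lower. Kcna2 had 255, 261 and 269 CPM in CTR, 292, 320.5 and 319 in CX3 and 511, 434 and 499.7 in DAT. Its groups were apart in the order CTR, CX3 and DAT, with log2 fold changes of 0.25 ± 0.06 (adjusted p = 0.00633) in CX3 and 0.88 ± 0.06 (adjusted p = 1.76e-08) in DAT. Kcna1, its partner in juxtaparanodal channels, had 46.2, 50.2 and 49.1 CPM in CTR, 43.5, 54.9 and 61.2 in CX3 and 113, 79.1 and 110.4 in DAT. CX3 overlapped CTR and DAT did not, with 0.13 ± 0.13 (adjusted p = 0.475) and 1.06 ± 0.13 (adjusted p = 6.00e-06). The cytoplasmic beta subunits bound to Kv1 channels rose in both groups, 3 of 3 in CX3 and 3 of 3 in DAT, although in DAT they were 2 higher and 1 lower when scaled on the 5 neuron markers. Kcnab2 had 236, 234 and 234 CPM in CTR, 320.1, 319.9 and 324 in CX3 and 471, 439 and 459 in DAT, with little spread in any group. The log2 fold changes were 0.45 ± 0.04 (adjusted p = 1.05e-06) in CX3 and 0.96 ± 0.04 (adjusted p = 1.03e-10) in DAT. Kcnab3 was higher by 0.30 and 1.03 and Kcnab1 by 0.36 and 0.28, and between CX3 and DAT Kcnab1 differed by 0.09 ± 0.05 (adjusted p = 0.142). In DAT Kcnab1 was at -0.23 (adjusted p = 8.89e-04) when scaled on the 5 neuron markers.

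**Figure D2:**
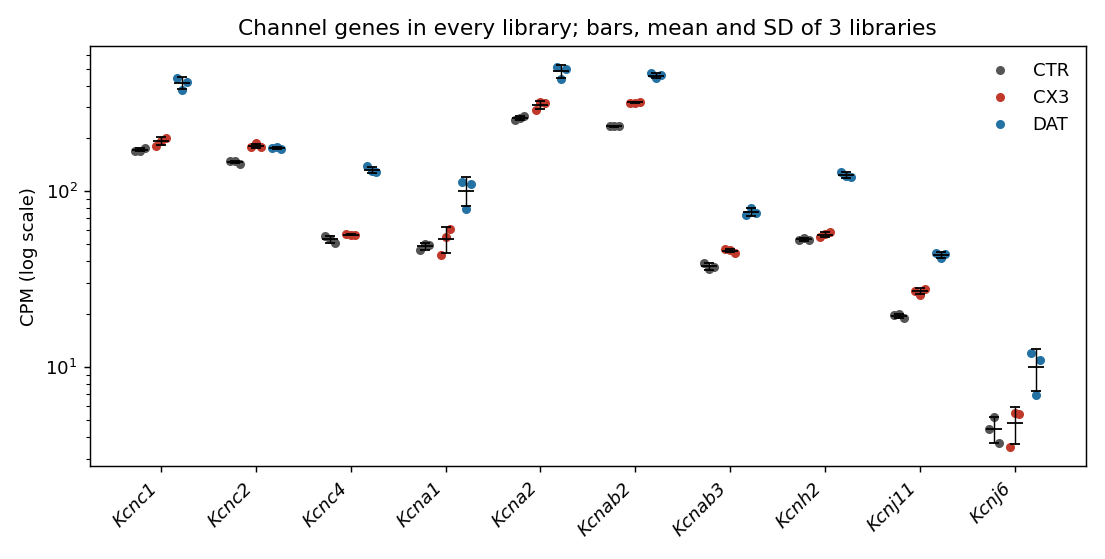
CPM of 10 neuronal channel genes in every library on a log axis, with points for the 3 libraries of CTR, CX3 and DAT and bars for their mean and SD. DAT lies above CTR for each gene on this TMM scale, the least for Kcnc2, which reverses to a log2 fold change of -0.25 when scaled on the 5 neuron markers, and the DAT points of Kcna1 and Kcnj6 spread widely, with DAT 2 lowest.

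The ether-a-go-go family, which includes the cardiac and neuronal repolarizing channel gene Kcnh2, had 7 of 8 members higher in DAT than in CTR, with a median of 0.82 (4 higher and 1 lower when scaled on the 5 neuron markers). Kcnh2 had 52.7, 54.2 and 52.7 CPM in CTR, 54.9, 56.8 and 58.4 in CX3 and 129, 122 and 121 in DAT. DAT stood apart from the other groups by 1.22 ± 0.05 (adjusted p = 6.10e-11) against CTR. Kcnh1 had 10.7, 9.15 and 10.5 CPM in CTR, 7.48, 8.29 and 8.02 in CX3 and 21.7, 16.7 and 20.98 in DAT. It lay below CTR in CX3 (log2 fold change -0.35 ± 0.10, adjusted p = 0.0214) and above it in DAT by 0.98 ± 0.10 (adjusted p = 9.35e-07). The fall in CX3 was no longer called without CTR 1 (0.0826), CTR 3 (0.0771), CX3 1 (0.0693) and CX3 3 (0.0503) (adjusted p in parentheses), nor on either strand alone. Kcnh3, a low member with 1.90 to 2.33 CPM in CTR, had the smallest difference of all members between CX3 and CTR, -0.00 ± 0.14. It was higher in DAT by 0.66 ± 0.14 (adjusted p = 8.90e-04), a call lost on the reverse strand (0.12) and when scaled on the 5 neuron markers (0.34).

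Among the Kv7 genes, subunits of the slow M-current that limits repetitive firing, 3 of 5 rose in DAT (3 higher and 1 lower when scaled on the 5 neuron markers) and 1 rose and 1 fell in CX3. Kcnq5 had 11.04, 11.7 and 11.5 CPM in CTR, 8.39, 9.30 and 8.28 in CX3 and 21.4, 17.0 and 22.2 in DAT. It was lower in CX3 (log2 fold change -0.40 ± 0.10, adjusted p = 0.00621) and higher in DAT by 0.83 ± 0.09 (adjusted p = 2.53e-06). Kcnq3, a principal M-current subunit, had 114, 114 and 117 CPM in CTR, 102, 125 and 118 in CX3 and 145, 111 and 143 in DAT. Its groups overlapped, and neither 0.00 ± 0.09 (adjusted p = 0.998) in CX3 nor 0.21 ± 0.09 (adjusted p = 0.0583) in DAT passed. Without DAT 2 the difference in DAT was called higher (adjusted p = 1.14e-05), and when scaled on the 5 neuron markers it was called lower (-0.30, adjusted p = 0.00569).

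Of the electrically silent subunits, which form channels only together with Kv2 proteins, 7 of 9 tested were higher in DAT, with a median of 0.76 (5 higher and 0 lower when scaled on the 5 neuron markers). Of them, 3 were higher and 1 lower in CX3. Kcng4 had 22.6, 22.3 and 21.2 CPM in CTR, 31.5, 33.5 and 32.5 in CX3 and 47.4, 45.9 and 46.2 in DAT. It rose in both groups, by 0.56 ± 0.05 (adjusted p = 2.02e-06) and 1.08 ± 0.05 (adjusted p = 4.77e-10). Kcns3 rose more in CX3 than in DAT, with 6.96, 8.30 and 7.03 CPM in CTR, 13.3, 14.1 and 13.3 in CX3 and 9.16, 10.1 and 9.87 in DAT. Its log2 fold change was 0.86 ± 0.08 (adjusted p = 3.28e-06) in CX3, 0.37 ± 0.09 (adjusted p = 0.0024) in DAT and 0.49 ± 0.08 (adjusted p = 1.48e-04) between them. The rise in DAT missed the threshold on either strand alone (adjusted p 0.0506 and 0.0501) and was -0.14 (adjusted p = 0.184) when scaled on the 5 neuron markers. Kcng1 and Kcng2, both rare, rose in DAT to 5.08 to 6.55 and 5.10 to 6.01 CPM from 2.003 to 2.63 and 2.20 to 2.53 CPM in CTR, by 1.32 ± 0.15 (adjusted p = 4.44e-06) and 1.19 ± 0.14 (adjusted p = 5.58e-06). Kcnv1 fell in CX3 (log2 fold change -0.52 ± 0.13, adjusted p = 0.00903), a call lost with forward-strand counts (0.0783), and was 0.26 ± 0.13 in DAT (adjusted p = 0.104). Kcnb2, a Kv2 gene, rose in DAT by 0.32 ± 0.10 (adjusted p = 0.0147) and did not pass in CX3 (-0.14). In DAT it was at -0.19 (adjusted p = 0.0813) when scaled on the 5 neuron markers.

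The A-type Kv4 genes were higher in DAT in 3 of 3 cases (1 higher and 0 lower when scaled on the 5 neuron markers), and none passed in CX3. Kcnd2 had 83.9, 82.8 and 84.3 CPM in CTR, 74.7, 80.1 and 79.3 in CX3 and 129, 127 and 134 in DAT. DAT lay above the other groups by 0.64 ± 0.04 (adjusted p = 2.68e-08) against CTR, and CX3 lay just below CTR (log2 fold change -0.10 ± 0.04, adjusted p = 0.107), a difference that was called without DAT 2 (0.0375). Their cytoplasmic partners, the channel-interacting proteins, rose by less, 4 of 4 in DAT with a median of 0.20 and 2 of 4 in CX3 with a median of 0.21. In DAT this direction depended on scaling, with 1 higher and 0 lower by library size alone. When scaled on the 5 neuron markers 0 were higher and 3 lower, beside 66.4% of all genes lower on that scale. Kcnip4, which slows inactivation of A-type channels, had 60.8, 58.9 and 58.8 CPM in CTR, 73.2, 74.0 and 74.6 in CX3 and 65.9, 67.1 and 62.6 in DAT. It was highest in CX3 by 0.31 ± 0.04 (adjusted p = 1.19e-04) against CTR. Its difference in DAT, 0.13 ± 0.05 (adjusted p = 0.0217), became -0.02 by library size alone and -0.38 (adjusted p = 7.97e-06) when scaled on the 5 neuron markers, and lost its call without CTR 1 (0.0656), CTR 2 (0.136), CTR 3 (0.129), CX3 1 (0.0571), CX3 3 (0.0686) and DAT 1 (0.114).

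Calcium-activated channels moved in both directions. Of the 4 small- and intermediate-conductance genes, 1 rose and 2 fell in CX3 and 1 rose and 2 fell in DAT. In DAT 0 were higher and 3 lower when scaled on the 5 neuron markers, where 66.4% of all genes were lower. Kcnn2, a channel of the medium afterhyperpolarization, had 27.8, 27.8 and 26.2 CPM in CTR, 16.3, 15.5 and 16.5 in CX3 and 23.6, 22.3 and 22.6 in DAT. It was the member with the lowest log2 fold change in CX3, -0.76 ± 0.06 (adjusted p = 2.07e-07). It also fell in DAT (log2 fold change -0.25 ± 0.06, adjusted p = 0.00123), and all groups lay apart. Kcnn3, the isoform known for steadying the pacemaking of dopamine neurons, had 36.4, 36.3 and 36.6 CPM in CTR, 34.7, 39.9 and 39.9 in CX3 and 39.8, 32.2 and 41.5 in DAT. The groups overlapped, with 0.07 ± 0.08 (adjusted p = 0.583) in CX3 and 0.06 ± 0.08 (adjusted p = 0.548) in DAT. Of the single libraries left out, DAT 2 alone brought the latter past the threshold (log2 fold change 0.15, adjusted p = 0.0212). Kcnn1 rose by 0.24 in CX3 and 0.62 in DAT. Of the large-conductance and sodium-activated pores, 2 of 4 rose in DAT (0 higher and 2 lower when scaled on the 5 neuron markers). These were Kcnma1, higher by 0.34 ± 0.09 (adjusted p = 0.00364) and Kcnt1, higher by 0.40 ± 0.06 (adjusted p = 6.35e-05), at -0.17 and -0.11 when scaled on the 5 neuron markers. None passed in CX3. The beta subunit gene Kcnmb2 had 3.35, 3.87 and 3.17 CPM in CTR, 5.06, 6.07 and 5.05 in CX3 and 5.13, 4.07 and 5.35 in DAT. It was higher by 0.63 ± 0.13 (adjusted p = 0.00224) in CX3 and 0.49 ± 0.14 (adjusted p = 0.00662) in DAT, the latter -0.02 when scaled on the 5 neuron markers.

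Of 13 tested inward rectifiers, 10 were higher in DAT than in CTR, with a median of 0.48 (4 higher and 3 lower when scaled on the 5 neuron markers), and 3 were higher in CX3. Kcnj11, the pore of ATP-sensitive channels, had 19.6, 19.9 and 19.0 CPM in CTR, 27.1, 25.8 and 27.9 in CX3 and 44.8, 41.5 and 44.1 in DAT. The groups rose apart from each other, by 0.46 ± 0.06 (adjusted p = 2.54e-05) in CX3 and 1.16 ± 0.06 (adjusted p = 4.81e-10) in DAT. The sulfonylurea receptor gene Abcc8, the partner of this pore, was at -0.10 in CX3 and 0.93 in DAT. Kcnj6, the G protein-gated channel through which dopamine autoreceptors quiet nigral neurons, had 4.43, 5.16 and 3.70 CPM in CTR, 3.48, 5.46 and 5.36 in CX3 and 12.04, 6.89 and 10.9 in DAT. DAT 2 was well below the other DAT libraries, CX3 overlapped CTR, and the differences were 0.09 ± 0.21 (adjusted p = 0.781) and 1.18 ± 0.20 (adjusted p = 1.73e-04). Its partner Kcnj9 had 67.6, 70.1 and 67.1 CPM in CTR, 73.6, 78.9 and 81.2 in CX3 and 102, 101 and 97.3 in DAT. The log2 fold changes were 0.19 ± 0.05 (adjusted p = 0.00915) and 0.55 ± 0.05 (adjusted p = 2.66e-07). The former call was lost without CTR 3 (0.0503) and CX3 3 (0.0509). The latter was 0.05 (adjusted p = 0.377) when scaled on the 5 neuron markers. Kcnj4 was at 1.81 to 1.90 CPM in CTR and 3.69 to 5.43 CPM in DAT, a rise of 1.27 ± 0.16 (adjusted p = 7.65e-06).

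Among glial rectifiers, Kcnj10, the channel of astrocytes and oligodendrocytes that clears potassium, had 359, 354 and 372 CPM in CTR, 372, 409 and 413 in CX3 and 525, 404 and 508 in DAT. It was higher in DAT by 0.41 ± 0.08 (adjusted p = 4.17e-04) and was at 0.14 ± 0.08 (adjusted p = 0.196) in CX3. The CX3 difference was called higher without DAT 2 (0.00135) and without CX3 1 and DAT 2 together (5.07e-09). It was also called with genes of at least 1 count (0.00952) and with only the 6 libraries compared (0.00241). The DAT difference was -0.10 when scaled on the 5 neuron markers. The summed astrocyte markers were 3799 to 3841 CPM in CTR, 1976 to 2080.2 CPM in CX3 and 2055 to 2124 CPM in DAT. All 4 were lower in CX3, and in DAT Gfap and Aqp4 were lower while Slc1a3 (-0.04, adjusted p = 0.465) and Aldh1l1 (-0.04, adjusted p = 0.511) did not pass. The oligodendrocyte markers summed to 19116 to 19192 CPM in CTR, 20420.0 to 20802 CPM in CX3 and 13571 to 14395 CPM in DAT. They did not move together, with 2 of 5 called higher and 3 lower in DAT, and 2 higher and 1 lower in CX3. Kcnj16, the heteromeric partner of Kcnj10, had 56.5, 56.5 and 60.2 CPM in CTR, 58.3, 62.4 and 62.8 in CX3 and 57.1, 50.2 and 56.6 in DAT. With all 9 libraries, the TMM scale, the main gene filter and both strands it passed only between CX3 and DAT, by 0.16 ± 0.06 (adjusted p = 0.0274). That call was lost without CX3 2 (0.0956) and CX3 3 (0.0535). Without CX3 1 and DAT 2 together it was called higher in CX3 than in CTR (log2 fold change 0.12, adjusted p = 0.0106). Against CTR it was called lower in DAT by library size alone (log2 fold change -0.22, adjusted p = 0.00387), among genes of at least 10 counts in every library (0.0426), on the forward strand (0.0308) and when scaled on the 5 neuron markers (-0.58, adjusted p = 2.13e-07). Kcnj8, the vascular ATP-sensitive pore, had 6.37, 5.82 and 7.17 CPM in CTR, 5.71, 5.43 and 5.94 in CX3 and 6.72, 7.95 and 7.33 in DAT. It differed between CX3 and DAT (log2 fold change -0.35 ± 0.10, adjusted p = 0.01) on the TMM scale but not by library size alone (0.199).

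Leak channels of the two-pore-domain family rose in DAT in 9 of 11 tested genes and fell in 1, with a median of 0.46 (5 higher and 3 lower when scaled on the 5 neuron markers). In CX3 none rose and 1 fell. Kcnk12 had 6.17, 4.94 and 5.10 CPM in CTR, 5.27, 5.95 and 6.33 in CX3 and 14.3, 12.6 and 15.2 in DAT. DAT stood apart by 1.38 ± 0.11 (adjusted p = 7.67e-08) against CTR, and CX3 overlapped CTR. Kcnk1, the most abundant of the family per kilobase in CTR, had 60.0, 60.1 and 61.1 CPM in CTR, 57.1, 60.9 and 61.6 in CX3 and 73.2, 76.0 and 73.6 in DAT. The log2 fold changes were 0.30 ± 0.05 (adjusted p = 7.01e-05) in DAT and -0.01 ± 0.05 (adjusted p = 0.862) in CX3, the former turning to a called -0.21 (adjusted p = 9.46e-04) when scaled on the 5 neuron markers. The acid-sensitive channels Kcnk3 and Kcnk9 and the mechanosensitive Kcnk2 rose in DAT by 0.86, 0.77 and 0.67, and in CX3 they were at -0.06, -0.13 and 0.03.

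The largest difference from CTR in either group was that of Kcne2, and in CX3 that of Kcnj13 came next. Kcne2 (ENSMUSG00000039672.12, chromosome 16, 92292389 to 92298129), a single-pass subunit of apical channels in the choroid plexus and stomach, had 0.263, 0.302 and 0.133 CPM in CTR, 9.11, 8.72 and 8.67 in CX3 and 5.51, 7.49 and 5.75 in DAT. Every CX3 and DAT library lay above every CTR library, by 5.20 ± 0.20 (adjusted p = 2.26e-10) in CX3 and 4.68 ± 0.22 (adjusted p = 4.31e-10) in DAT, and CX3 lay above DAT by 0.52 ± 0.12 (adjusted p = 0.00201). Kcnj13 (ENSMUSG00000079436.3, chromosome 1, 87386363 to 87394729), an inward rectifier of the choroid plexus and retinal pigment epithelium, had 0.985, 0.852 and 0.767 CPM in CTR, 2.91, 2.86 and 2.76 in CX3 and 1.75, 1.81 and 1.89 in DAT. It was ordered in the same way, with 1.71 ± 0.15 (adjusted p = 1.82e-06) in CX3, 1.06 ± 0.17 (adjusted p = 1.07e-04) in DAT and 0.65 ± 0.14 (adjusted p = 0.00127) between them. Of its exon bases, 49.1% were shared with Gigyf2 on the other strand. Reads on shared bases were left out as ambiguous, and the unstranded counts do not give the strand of the rest. All 5 choroid plexus markers (Ttr, Kl, Folr1, Clic6, Slc4a5) were higher in both groups, with summed levels of 34.0 to 36.4 CPM in CTR, 1465 to 1574 CPM in CX3 and 866 to 1034 CPM in DAT. Ttr, the transthyretin gene, was at 19.4 to 20.8 CPM in CTR, 1411 to 1519.7 CPM in CX3 and 794 to 966 CPM in DAT. The part of choroid plexus tissue in the values of these channels was not tested. Kcne4, another single-pass subunit, had 3.28, 3.08 and 4.03 CPM in CTR, 6.70, 5.31 and 6.51 in CX3 and 3.67, 4.48 and 4.08 in DAT. CX3 lay apart from CTR by 0.84 ± 0.13 (adjusted p = 2.75e-04), and the log2 fold change was 0.22 ± 0.15 (adjusted p = 0.2) in DAT.

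**Figure D3:**
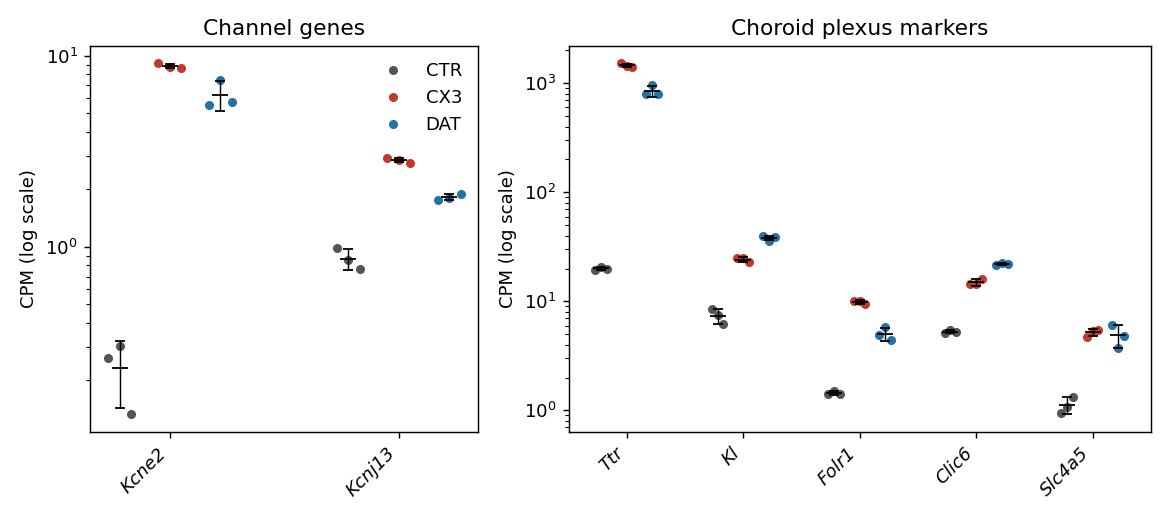
CPM on log axes of Kcne2 and Kcnj13 (left) and of 5 choroid plexus markers (right) in the 3 libraries of CTR, CX3 and DAT; points are libraries and bars the mean and SD. For every gene the CTR libraries are lowest, and Kcne2, Kcnj13, Ttr and Folr1 are highest in CX3, whereas Kl and Clic6 are highest in DAT.

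Channels known from microglia and lymphocytes were few and did not move together. Of the 5, 3 were lower and none higher in CX3, beside 16.5% and 14% of all genes. In DAT 2 were higher and 2 lower, near the 32% and 27.9% of all genes. When scaled on the 5 neuron markers 0 were higher and 3 lower in DAT, beside 8.62% and 66.4% of all genes. Kcnk13, the leak channel of microglia, had 24.7, 24.4 and 23.6 CPM in CTR, 23.8, 25.1 and 23.7 in CX3 and 32.9, 34.3 and 33.0 in DAT. CX3 overlapped CTR (log2 fold change -0.00 ± 0.05, adjusted p = 0.972), and DAT was higher by 0.46 ± 0.05 (adjusted p = 3.30e-06), or -0.05 when scaled on the 5 neuron markers. Kcnk6, a macrophage leak channel that supplies potassium efflux for inflammasome activation, had 11.8, 13.4 and 12.9 CPM in CTR, 9.19, 10.9 and 10.3 in CX3 and 7.16, 6.19 and 5.92 in DAT. It fell in CX3 (log2 fold change -0.33 ± 0.09, adjusted p = 0.0125) and in DAT (log2 fold change -0.97 ± 0.10, adjusted p = 1.12e-06). The former call was lost without CTR 2 (0.066) and on the reverse strand (0.0758). Kcnn4 (ENSMUSG00000054342.8, chromosome 7, 24370263 to 24386690), the calcium-activated channel of activated T cells and microglia, had 3.58, 3.35 and 4.73 CPM in CTR, 2.52, 2.86 and 2.99 in CX3 and 1.95, 1.61 and 1.62 in DAT. All groups lay apart in falling order, with log2 fold changes of -0.47 ± 0.15 (adjusted p = 0.0283) in CX3 and -1.14 ± 0.17 (adjusted p = 4.84e-05) in DAT. The former call was lost without CTR 3 (0.153), CX3 1 (0.0877) and CX3 2 (0.0641) and on either strand alone. The T cell markers had summed levels of 40.4 to 41.8 CPM in CTR, 33.6 to 35.9 CPM in CX3 and 9.17 to 10.5 CPM in DAT, with 2 of 5 lower in CX3 and 5 of 5 lower in DAT. Their part in the Kcnn4 and Kcnk6 values was not tested.

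Kcna3, the Kv1 channel of effector T cells and activated microglia, had 9.06, 8.71 and 9.97 CPM in CTR, 4.78, 6.99 and 6.80 in CX3 and 14.9, 9.61 and 12.3 in DAT. CX3 lay below CTR (log2 fold change -0.58 ± 0.16, adjusted p = 0.0125). The call was lost without CTR 3 (0.0543) and on the reverse strand (0.0642). DAT overlapped CTR and was higher by 0.44 ± 0.15 (adjusted p = 0.0227). That call was lost without CTR 1 (0.0745), CTR 2 (0.0993), DAT 1 (0.207) and DAT 3 (0.0526) and under other settings, library size alone among them (0.11), and the value was -0.08 (adjusted p = 0.639) when scaled on the 5 neuron markers. Kcnj2, the classical inward rectifier of macrophages and many other cells, had 19.1, 19.2 and 21.5 CPM in CTR, 19.9, 18.8 and 20.2 in CX3 and 19.7, 18.7 and 20.6 in DAT. It passed in no comparison (adjusted p 0.824, 0.831 and 0.962). In DAT it lay at -0.02 ± 0.07 against CTR, and at -0.16 by library size alone, where it was called lower (0.0454).

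**Figure D4:**
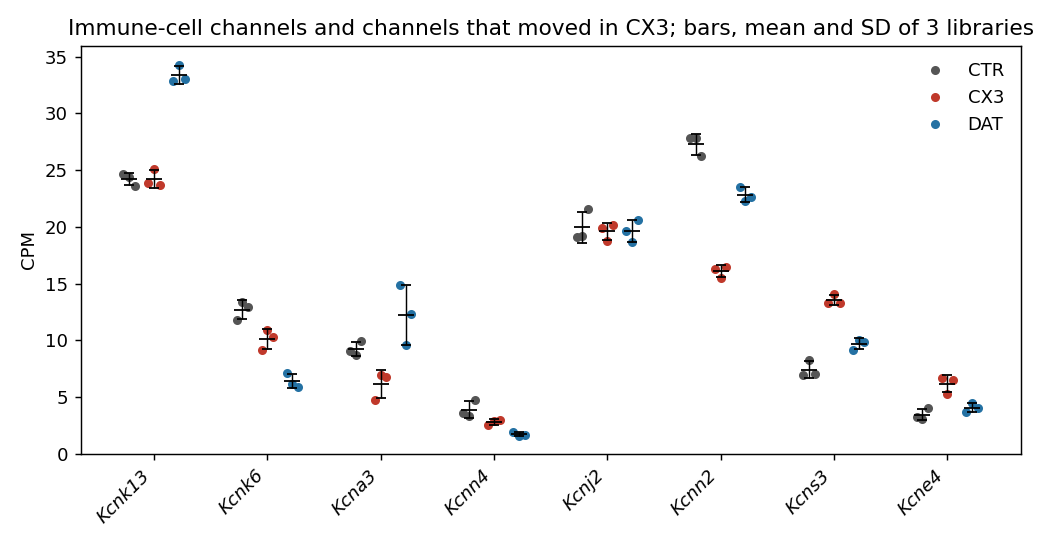
CPM on a linear axis of 8 channel genes of immune cells or with differences in CX3, in the 3 libraries of CTR, CX3 and DAT with mean and SD. Kcnk6 and Kcnn4 fall from CTR over CX3 to DAT, Kcnn2 is lowest in CX3, Kcns3 and Kcne4 are highest in CX3, and Kcnj2 stays between 18.7 and 21.5 CPM in all 9 libraries.

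The 5 channels tied to nigral dopamine neurons (Kcnj6, Kcnd3, Kcnip3, Kcnn3, Kcnj11) included 2 higher in CX3 and 4 higher in DAT, with none lower (2 higher and 2 lower in DAT when scaled on the 5 neuron markers). Kcnip3 had 73.1, 71.6 and 74.7 CPM in CTR, 92.8, 96.1 and 96.4 in CX3 and 86.8, 85.5 and 82.9 in DAT. The log2 fold changes were 0.38 ± 0.04 (adjusted p = 1.68e-05) in CX3 and 0.22 ± 0.04 (adjusted p = 6.36e-04) in DAT. The latter was not called by library size alone (0.157) or on the forward strand (0.109), and turned to a called -0.29 (adjusted p = 3.60e-05) when scaled on the 5 neuron markers. Kcnd3, the A-type pore it joins, had 79.2, 78.9 and 79.1 CPM in CTR, 75.4, 85.4 and 85.7 in CX3 and 115, 91.9 and 111 in DAT. DAT lay above CTR by 0.42 ± 0.07 (adjusted p = 1.98e-04), and CX3 was at 0.06 ± 0.07 (adjusted p = 0.615). In DAT it was at -0.08 (adjusted p = 0.262) when scaled on the 5 neuron markers. The dopamine transporter gene Slc6a3 was at 128, 133 and 129 CPM in CTR, 193, 195 and 198 CPM in CX3 and 93.3, 88.3 and 91.6 CPM in DAT. Kcnj6 and Kcnj11 were highest in DAT, where Slc6a3 was lowest. The 7 dopamine neuron markers did not move together in DAT, where 3 were called lower and 2 higher, Slc18a2 by 0.12 (adjusted p = 0.0318) and En1 by 0.22 (adjusted p = 0.0362). These channel genes are also used by other neurons, and of the 2 glutamate neuron markers the transporter gene Slc17a7 reached 147 to 171 CPM in DAT beside 35.4 to 38.3 CPM in CTR. The other, Slc17a6, was at 312 to 313 CPM in DAT and 298 to 302 CPM in CTR, a log2 fold change of 0.06 (adjusted p = 0.217), and was called lower in CX3.

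In all, 20 members were higher in both CX3 and DAT than in CTR, 3 were lower in both (Kcnk6, Kcnn2, Kcnn4) and 4 were lower in CX3 and higher in DAT (Kcna3, Kcna5, Kcnh1, Kcnq5). Of all tested genes, 8.06% were higher in both, 7.05% lower in both and 5.61% lower in CX3 and higher in DAT. No member was higher in CX3 and lower in DAT, as 2.06% of all genes were. These joint counts rest on the same 3 CTR libraries. Kcna5, a delayed rectifier gene, had 4.07, 3.79 and 4.17 CPM in CTR, 3.06, 2.57 and 3.15 in CX3 and 7.57, 6.64 and 7.20 in DAT. Its CX3 libraries were all below and its DAT libraries all above CTR, with log2 fold changes of -0.45 ± 0.12 (adjusted p = 0.0103) and 0.84 ± 0.11 (adjusted p = 1.31e-05). The fall was not called without CX3 2 (0.0506) or on the reverse strand (0.439). Proteins that work with potassium channels but carry other symbols were counted alongside. Of 16 tested partner genes, 11 were higher and 2 lower in DAT (8 higher and 6 lower when scaled on the 5 neuron markers), and 3 were higher and 6 lower in CX3. The pacemaker channel gene Hcn2 was higher by 0.37 in CX3 and 1.13 in DAT, and Dpp6, an auxiliary subunit of A-type channels, was at -0.50 and 0.73. Other cation channel families were counted in DAT. Of 12 tested sodium channel genes, 9 were higher and none lower (5 higher and 5 lower when scaled on the 5 neuron markers). Of 24 calcium channel genes, 17 were higher and 1 lower (11 higher and 8 lower when scaled on the 5 neuron markers). Of all genes, 32% were higher and 27.9% lower in DAT, and 8.62% and 66.4% when scaled on the 5 neuron markers.

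Members with long transcripts were lower in DAT 2 than in the other DAT libraries. Over 58 members of at least 5 CPM, the median log2 difference of DAT 2 from the mean of the others was -0.21 for the 29 with more than 5184 bases of exon and -0.03 for the 29 shorter ones, and Kcnj6 was lowest at -0.74. For CX3 1 the medians were -0.11 and -0.05. The difference between DAT and CTR also depended on what the libraries were scaled to. All 5 neuron markers had positive log2 fold changes in DAT (0.10 to 1.17, 4 called), with summed levels of 4378 to 4600.2 CPM against 3257 to 3313 CPM in CTR and 3413 to 3558 CPM in CX3. Scaled on them, the median of all genes moved to -0.51 and that of the members to -0.02, with 32 members called higher on both scales. Kcnk12 then stood at 0.87, Kcng1 at 0.81, Kcnc4 at 0.80 and Kcnc1 at 0.75, while Kcnk6 was at -1.48 and Kcnn4 at -1.65.

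**Figure D5:**
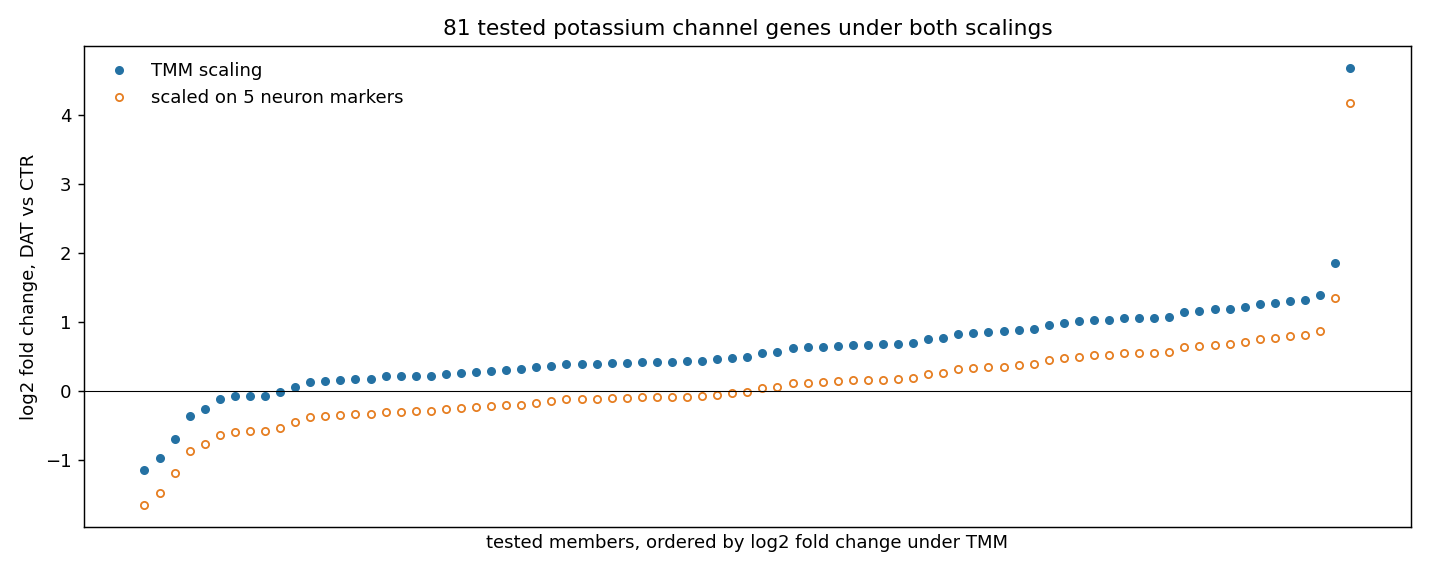
Log2 fold change between DAT and CTR of the 81 tested potassium channel genes, each at 1 place on the horizontal axis, ordered by their value under TMM (filled) and shown again after scaling on 5 neuron markers (open). The second scale lowers every gene by about the same amount, so 63 members called higher become 32 and 3 called lower become 19, beside 8.62% of all genes called higher and 66.4% lower on that scale.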

How the data were processed

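The study sequenced RNA of nigral tissue (a stranded mRNA kit, 1 μg of RNA, 76-base reads). The authors trimmed reads with Trimmomatic and aligned them to mm10 with STAR, and featureCounts and DESeq2 are named, all without versions. The deposited counts are reads per gene without normalization, in the form that STAR writes. The reverse strand held 49.8% to 49.9% of stranded counts, so counts of both strands were used. Reads on exon bases shared by overlapping genes cannot be told apart and are held as ambiguous. Reads not assigned to 1 gene (30.5% to 35.9%), the ambiguous ones among them, were left out. Groups come from the labels.

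All 9 libraries were fitted together in edgeR 4.0.16 (R 4.3.3) with TMM scaling, filterByExpr and the quasi-likelihood test, on 20892 genes with Benjamini-Hochberg adjustment over all of them, called below 0.05. Fold changes are log2 with SE, and RPKM used GENCODE M21 exon lengths. DESeq2 1.42.0 and other scalings, filters, strands, a block and left-out libraries were alternatives. The steps were tested on simulated data. Summaries used Python 3.11.15. Named members were the 10 with the largest called change at 1 CPM or more and the 3 smallest in each comparison, the 10 highest per kilobase in CTR, and 4 member lists. Other members are named as examples of their subfamily, chosen after their values were seen. Members and lists were chosen with earlier results of these data known. The vector's product and some channel genes are not reported here.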

Additional observations from a re-analysis of the deposited data

Results flagged for a closer look

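Channel genes with opposite differences from CTR in the 2 driver lines, lower in CX3 and higher in DAT, are given here. This pattern was held by 4 of 81 tested members, beside 5.61% of all tested genes. The 4 were chosen for opposite calls against the same CTR libraries. That choice fixes the sign of the direct difference between CX3 and DAT and makes it likely to pass edgeR's quasi-likelihood test. The direct difference therefore adds no support. Values are log2 fold changes with the SE of the direct difference. Kcna3 was at -0.58 in CX3 and 0.44 in DAT against CTR, and the direct difference was -1.02 ± 0.16 (adjusted p = 6.15e-05). Scaled on the 5 neuron markers it was at -0.62 in CX3 and -0.08 in DAT (adjusted p = 0.639), so its directions were no longer opposite, and its DAT call was lost under 9 listed alternatives. Kcna5 was at -0.45 in CX3 and 0.84 in DAT against CTR, and the direct difference was -1.29 ± 0.11 (adjusted p = 2.23e-07). Kcnh1 was at -0.35 in CX3 and 0.98 in DAT against CTR, and the direct difference was -1.33 ± 0.10 (adjusted p = 4.76e-08). Kcnq5 was at -0.40 in CX3 and 0.83 in DAT against CTR, and the direct difference was -1.23 ± 0.09 (adjusted p = 5.39e-08). The fall in CX3 of Kcna5 was not called without CX3 2 or on the reverse strand. That of Kcnh1 was not called without CTR 1, CTR 3, CX3 1 or CX3 3, nor on either strand alone. Tested in edgeR against a fold of 1.2, no flagged gene was called lower in CX3 (adjusted p 0.0954 to 0.398). All 3 CX3 libraries of each gene lay below all 3 DAT libraries. The summed neuron markers differed between the same groups, and their part in these values was not tested.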

How the results depend on the processing

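Of 92 called log2 fold changes of named members, 62 kept direction and call under every alternative that had been listed, among 123 values recomputed, and 30 lost the call under at least 1. By library size alone, which moved the median of all genes by -0.15 in DAT against CTR and 0.20 in CX3 against DAT, Kcnip4 in DAT became -0.015 and Kcnj2 between CX3 and DAT 0.19, 16 members were higher in CX3 than in DAT and 5 lower in DAT than in CTR. Tested against a fold of 1.2, 11 members were higher and 1 lower in CX3 against CTR. Members lower in CX3 than in CTR numbered 5 on the forward and 3 on the reverse strand, and with every gene of at least 1 count 5 were lower in DAT. Leaving out single libraries, or CX3 1 with DAT 2 (a setting added after the data were seen), gave 18 to 32 higher and 5 to 11 lower in CX3 against CTR. Scaling on the 5 neuron markers, also added after the data were seen, gave 32 higher and 19 lower in DAT (8.62% and 66.4% of all genes), and 24 higher and 27 lower in CX3 against DAT (63.3% and 10.6%). Among the named members it reversed in DAT Kcna3 (-0.077), Kcnc2 (-0.25), Kcnd3 (-0.085), Kcnip3 (-0.29), Kcnip4 (-0.38), Kcnj10 (-0.10), Kcnj8 (-0.33), Kcnk1 (-0.21), Kcnk13 (-0.049), Kcnmb2 (-0.018), Kcnn3 (-0.45), Kcnq3 (-0.30) and Kcns3 (-0.14). In CX3 against DAT it reversed Kcnd3 (0.096), Kcnj10 (0.20), Kcnj2 (0.46), Kcnj8 (0.11), Kcnj9 (0.099), Kcnk1 (0.15), Kcnk13 (0.0019) and Kcnq3 (0.25). Further members called higher in DAT under TMM also turned negative, among them Kcnab1 (-0.23), Kcnb2 (-0.19), Kcnma1 (-0.17) and Kcnt1 (-0.11). The causes were not tested. The letters A to C were not treated as pairs. Same-letter deviations correlated by -0.51 to 0.39, and not every library correlated best with its own letter. CX3 1 and DAT 2, which stood apart in their groups, correlated by 0.58, so these correlations cannot show whether letters pair the libraries. With the letters as a replicate block 21 members were higher and 8 lower in CX3, 62 and 3 in DAT against CTR, and of the named members Kcnc1 in CX3 lost its call (adjusted p = 0.0603). Members under 3 counts (up to 0.151 CPM) were beyond the depth.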

Other observations

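Genes of proteins that modulate potassium channels were followed beyond the family itself. Lgi1, a secreted protein that slows inactivation of Kv1 channels, had 73.9, 71.5 and 72.7 CPM in CTR, 58.4, 61.4 and 58.6 CPM in CX3 and 68.2, 65.6 and 66.2 CPM in DAT. Its log2 fold changes were -0.29 ± 0.04 (adjusted p = 2.08e-04) in CX3 and -0.12 ± 0.04 (adjusted p = 0.027) in DAT, unlike the Kv1 genes in DAT, whose log2 fold changes were all positive on this scale. Cntnap2, which clusters Kv1 channels beside the node, had 118, 114 and 119.7 CPM in CTR, 93.1, 102 and 103 CPM in CX3 and 198, 178 and 194 CPM in DAT, with -0.24 ± 0.05 (adjusted p = 0.00467) in CX3 and 0.70 ± 0.05 (adjusted p = 6.58e-08) in DAT. Kcnrg, a regulator that keeps Kv subunits from assembling, had 1.35, 1.32 and 1.10 CPM in CTR, 1.12, 0.953 and 1.35 CPM in CX3 and 0.603, 0.654 and 0.746 CPM in DAT, with -0.14 ± 0.20 (adjusted p = 0.644) and -0.93 ± 0.23 (adjusted p = 0.00308).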
